A study of Mus musculus with 4 samples.

Results

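Kcnj13, Kcne2, Clic6, Car2, Car12, Fxyd1 and Trpv4 are 7 of the 15305 gene rows in a count table of 82 single mouse brain cells. They encode ion channels, channel or pump regulators and carbonic anhydrases that are known from the choroid plexus. The 7 genes were selected on measured values of these same cells, because they accompany Enpp2 and Ttr there. Their difference between cells rich in Enpp2 and other cells is therefore given as a description, with no test. All 7 were among the 5793 genes with at least 10 counts in at least 5 cells.

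The cells came from mice of the Penk-Cre Ai9 line, whose genotype label is WT. In this line Cre recombinase under control of Penk switches on the red fluorescent protein tdTomato in cells that express, or whose ancestors expressed, the driver, so the reporter by itself does not name a cell type. Striatum with the adjoining subventricular zone was dissociated, and tdTomato+ cells were sorted singly into plates. Dataset A took tdTomato+/CD11b- cells, CD11b being a microglial surface protein, and its 41 cells lay on 1 plate. Dataset B took all tdTomato+ cells, and its 41 cells lay on 4 plates. Neuroblasts and quiescent neural stem cells are the labelled cell types of each dataset, but the labels tie no cell to either and give no number of mice and no age. No replicate is named within a dataset, so each dataset was treated as 1 sample, its cells are not replicates, and no p-value is given.

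The choroid plexus is a folded epithelium in the brain ventricles that secretes cerebrospinal fluid. Its cells move sodium, chloride and bicarbonate from blood to ventricle, and water follows. The sodium pump of the apical membrane drives this transport, potassium channels return the potassium that the pump brings in, and carbonic anhydrases make bicarbonate and protons from carbon dioxide and water. Ttr, the carrier of thyroid hormone and retinol in the fluid, and Enpp2, the enzyme that makes lysophosphatidic acid, are among the most abundant transcripts of these cells.

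A cell was called Enpp2-rich when Enpp2 took at least 1% of its counts. This held for 32 cells, 16 in each dataset, and left 25 other cells in each. The Enpp2 share of Enpp2-rich cells ran from 1.93% to 29.1% with a median of 19.4% in dataset A, and from 1.25% to 22.8% with a median of 13.95% in dataset B. Just inside the threshold lay cell H4 of plate P1 in dataset B at 1.25% and cell F6 of dataset A at 1.93%. Just outside lay cells H6 and G9 of dataset A, at 0.999% and 0.424%. Cell H6 had 78.2% of its counts in Ttr and 4 of the 7 genes at 10 or more counts, and cell G9 had 5 of the 7. Both also carried neuroblast genes, 17 of 28 in H6 and 25 in G9, so values that rest on H6 are given with and without it. H4 had 6 of the 7 genes, so the ratios of dataset B are also given with a limit of 2% Enpp2, which puts H4 among the other cells.

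Totals per cell ran from 530630 to 7765650 counts. They summed to 86683085 in dataset A and 85771229 in dataset B. Of a list of 18 choroid plexus epithelium genes, the Enpp2-rich cells carried 6 to 15 (median 11.5) at 10 or more counts in dataset A and 6 to 12 (median 9) in dataset B. Of the list, 12 genes were at least 2-fold higher in Enpp2-rich cells in both datasets, although Enpp2 and Ttr belong to it and the others were known to accompany them. None was lower in both, but Aqp1, Cldn2, Slc4a5, Cldn1, Wfdc2 and Igf2 had no count in either group of dataset B. By the same rule 10.2% of all 5793 genes were higher in Enpp2-rich cells in both datasets and 32.7% lower. Of 28 neuroblast genes, 27 were lower. Of 9 measured oligodendrocyte genes they carried 0 to 2, with Mbp in 1 and 2 of 16 cells of datasets A and B at summed levels of 1.61 and 112 CPM, and Mag and Cldn11 at 0 in all cells. Of 5 measured genes of vessels and meninges they carried 0 or 1 (Pecam1 in 1 cell), and Flt1, Kdr, Acta2 and Col1a1 had no count in them. Of 14 measured genes of astroglia and quiescent stem cells, they carried a median of 2 in both datasets. Of 7 measured ependymal genes they carried 0 to 4, at summed levels of 2.46 to 2282 CPM in dataset A and 0 to 2256 CPM in dataset B, and Dynlrb2, Cfap126 and Rsph1 were higher than in other cells in both datasets. The part of ciliated cells in the values below was not tested. Cells E10 and F6 of dataset A were mixed. E10 carried 17 neuroblast genes and F6 carried 10, together with 13 astroglia genes. The other Enpp2-rich cells carried at most 4 neuroblast genes. Of the 50 other cells, 40 carried at least 10 neuroblast genes (15 in dataset A and 25 in dataset B), and the remaining 10 were all in dataset A. No pair of cells among 3321 had identical counts.

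Apart from Trpv4, which was in 5 of 32 Enpp2-rich cells, each gene was found in more than 50% of the Enpp2-rich cells, and outside them in 7 of 50 cells for Fxyd1 and in at most 3 of 50 for the others. The median Enpp2-rich cell held 5 of them at 10 or more counts, with a range of 1 to 6 in dataset A and 2 to 7 in dataset B. At least 4 of the 7 were detected in 27 of the 32 Enpp2-rich cells. Of the 50 other cells, 38 had none, and 2 (H6 and G9) had more than 1. Summed over cells, 6 of the 7 were at least 2-fold higher in Enpp2-rich cells in both datasets, with levels in CPM (counts scaled to a total of 1000000) and log2 ratios taken after adding 1 CPM. The exception was Trpv4. Of all 5793 genes, 588 (10.2%) passed the same rule. The median log2 ratio of all genes in datasets A and B was -1.50 and -0.64, and that of the 7 was 5.04 and 9.61. These genes were chosen for that contrast, so nothing is read from the count.

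**Figure D1:**
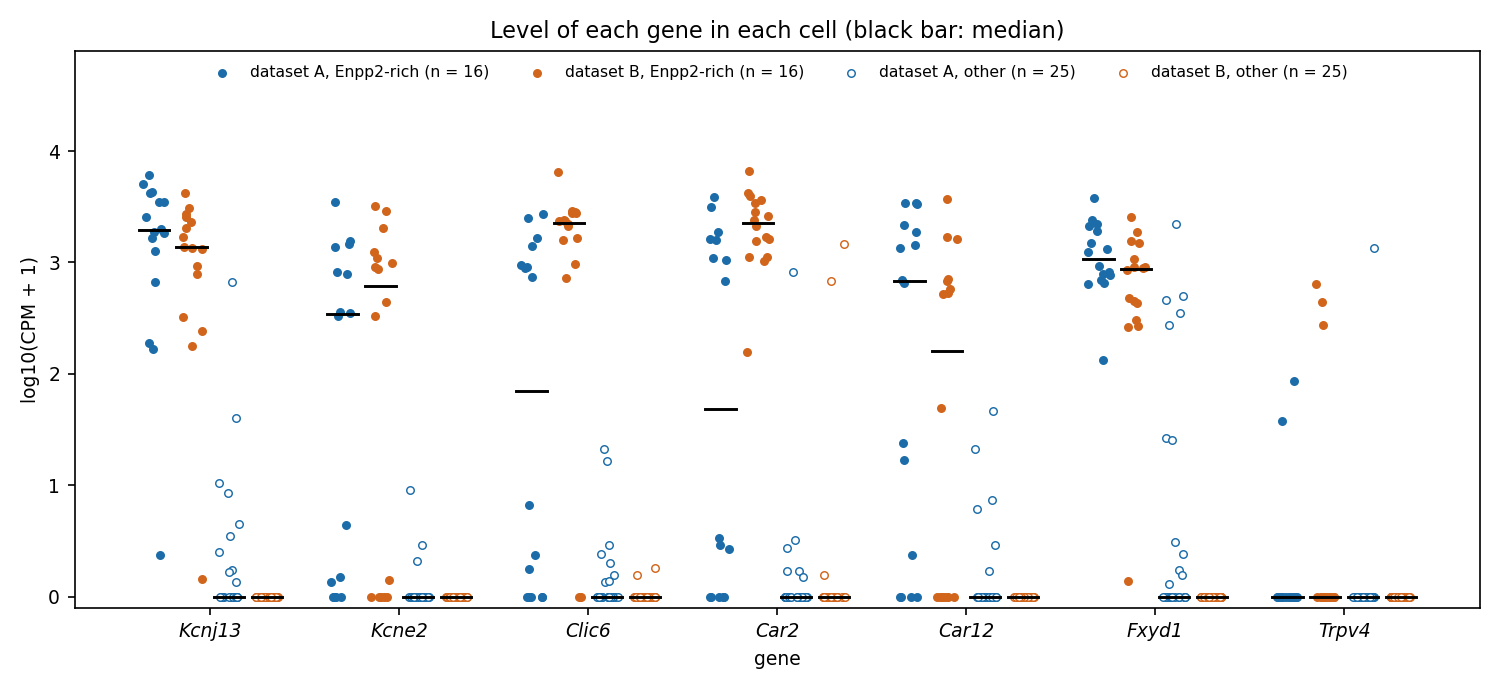
Each point is 1 cell, with the gene on the horizontal axis and log10(CPM + 1) on the vertical axis; filled points are the 16 Enpp2-rich cells of dataset A (blue) and dataset B (orange), open points are the 25 other cells of each, and black bars are medians. In Enpp2-rich cells most values lie either above 100 CPM or near 0, and Trpv4 has 5 cells above 0.

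In single Enpp2-rich cells the genes were either abundant or nearly absent. Among the 224 combinations of 32 cells and 7 genes, 59 had no count and 12 had 1 to 9 counts. Only 3 had 10 to 99 counts, 23 had from 100 to below 1000, and 127 had 1000 or more. A choice of 1, 10 or 50 counts as the limit of detection therefore left the median at 5 to 5.5 genes per cell. Reads were amplified by PCR and the protocols mention no molecular identifiers, so the intervals of ratios cover counting error only. Intervals of shares treat the cells as independent draws. Neither covers variation between mice or plates.

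Kcnj13, which encodes the inwardly rectifying potassium channel Kir7.1 of the apical membrane, was the most widely shared of the channels. It was detected in 15 of 16 Enpp2-rich cells of each dataset (93.8%, exact 95% interval 69.8% to 99.8%). Levels in single cells of dataset A ran from 1.35 to 6076 CPM with a median of 1940.4. Those of dataset B ran from 0.448 to 4217 CPM with a median of 1372. The low ends were cell E10, which also carried neuroblast genes, and cell H6 of plate P3. In the other cells it was detected in 3 of 25 in dataset A and 0 of 25 in dataset B, where the interval reaches 13.7%. The summed level was 2004 CPM in Enpp2-rich and 60.1 CPM in other cells of dataset A, a ratio of 33.4. Cell H6 of dataset A held 2636 of the 2740 counts of the other cells, and without it the ratio was 803, or 2223 without G9 as well. In dataset B the summed level was 1553 CPM against 0, at least 26556-fold higher when 3 counts over the group stand for 0, as in the other such bounds below. With H4, which had 765 counts, among the other cells the ratio was 115.

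The gene Kcnj13 lies at chr1:87309135-87322456 on the minus strand of GRCm39, inside Gigyf2, which is transcribed from the opposite strand and encodes a regulator of translation. Their exons share 669 bases, 10.8% of the exon bases of Kcnj13. Gigyf2 was detected in 30 of 32 Enpp2-rich cells but in 7 of 50 other cells. Its counts were a median of 1.98% of those of Kcnj13 in the same cell, over the 30 cells with Kcnj13, and under 5% in 24 of them, with a range of 0.503% to 775%. The sources used here do not say whether reads were counted by strand, so part of the Gigyf2 counts and of the Kcnj13 counts may not be told apart. The promoter of Kcnj13 is shown because this gene had the steadiest presence among the channels and its window holds matches to 3 of the 5 motifs searched. It is the 250 bases before the start in RefSeq's GRCm38.p6 annotation, chr1:87394730-87394979, minus strand. Capitals mark, from the left, a CCAAT box on the opposite strand, a CCAAT box on the gene's strand, an E-box (CAGCTG) and a TATA box (TATAAA).
Kcnj13 promoter: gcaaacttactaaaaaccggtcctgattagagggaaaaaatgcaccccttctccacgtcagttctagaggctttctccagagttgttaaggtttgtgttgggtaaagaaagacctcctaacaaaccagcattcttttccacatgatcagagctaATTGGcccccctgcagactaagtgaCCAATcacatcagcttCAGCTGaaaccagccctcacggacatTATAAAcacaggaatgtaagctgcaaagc

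The TATA box began 29 bases before the start, and the CCAAT boxes 96 and 71 bases before it. Over 32851 such windows of the mouse genome and on both strands, TATAAA was found in 12.4%, CCAAT in 33.9% and CAGCTG in 13%. GGGCGG, the GC box, was found in 32.7%, and TAATCC, the core letters bound by OTX homeobox factors, in 6.25%. Windows were at hand for 5 of the 7 genes, 6 windows in all because Kcne2 has 2. None of the 6 held TAATCC, and the GC box lay in those of Car12, Kcne2 and Trpv4. A match of letters is not a site that is used.

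Kcne2 encodes a small single-span subunit that assembles with potassium channels. It was detected in 9 of 16 Enpp2-rich cells of dataset A (56.3%, interval 29.9% to 80.3%) and in 10 of 16 of dataset B (62.5%, 35.4% to 84.8%). Levels ran from 0 to 3488 CPM with a median of 341.5 in dataset A, and from 0 to 3207 CPM with a median of 652 in dataset B. Cells that had it were far above those that did not, with 329 CPM or more in every detected cell of dataset A and 331 CPM or more in dataset B. In the other cells only G9 reached 10 counts, with 14. The summed levels of 507 CPM in Enpp2-rich and 0.395 CPM in other cells of dataset A gave a ratio of 1284 (interval 812 to 2166), or 5557 (2170.2 to 20398) without G9, where 4 counts were left. In dataset B 782 CPM stood against 0, at least 13372-fold higher, or 42.0-fold with H4 (1030 counts) among the other cells.

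Clic6, a member of the chloride intracellular channel family, lies near Kcne2 on chromosome 16. Kcne2 is at chr16:92089219-92095027 and Clic6 at chr16:92282624-92338739, both on the plus strand of GRCm39, with 187.6 kb and 5 annotated coding genes between them (Fam243, Kcne1, Rcan1, Smim11 and Smim34). Of these, Rcan1 and Smim11 had rows in the table, and they were detected in 1 and 10 of the 32 Enpp2-rich cells. Clic6 was detected in 9 of 16 Enpp2-rich cells of dataset A and in 14 of 16 of dataset B (87.5%, 61.7% to 98.5%). Levels ran from 0 to 2712 CPM with a median of 374 in dataset A, and from 0 to 6437 CPM with a median of 2263 in dataset B. The lowest detected cell of dataset B had 726 CPM. In other cells 2 of 25 in dataset A reached 10 counts, and none of 25 in dataset B. The summed level in dataset A was 633 CPM against 2.52 CPM, a ratio of 251, or 753 without cell H6 and 3160 without H6 and G9. In dataset B it was 2104 CPM against 0.0390 CPM, which is 2 counts, a ratio of 53957 with a counting interval of 14936 to 445548. With H4 (5145 counts) among the other cells it was 21.9, outside that interval.

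In dataset B each of the 10 Enpp2-rich cells with Kcne2 also had Clic6, while 4 cells had Clic6 alone and 2 had neither. In dataset A 6 cells had both, 3 had Kcne2 alone, 3 had Clic6 alone and 4 had neither. The Kcne2 promoter is shown for the neighbour pair, with a GC box on the opposite strand in capitals, beginning 95 bases before the start (RefSeq, GRCm38.p6, chr16:92292139-92292388, plus strand).
Kcne2 promoter: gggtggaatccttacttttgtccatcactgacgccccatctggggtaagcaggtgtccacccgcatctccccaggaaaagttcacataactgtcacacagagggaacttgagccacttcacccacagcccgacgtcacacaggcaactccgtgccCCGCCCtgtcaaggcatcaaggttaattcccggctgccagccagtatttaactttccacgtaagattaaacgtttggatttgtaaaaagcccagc

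Trpv4, a calcium-permeable cation channel opened by swelling and warmth, was the sparsest of the genes. It lies at chr5:114760209-114796914 on the minus strand of GRCm39. It had counts in 2 of 16 Enpp2-rich cells of dataset A (12.5%, interval 1.55% to 38.4%), at 36.4 and 85.8 CPM. In dataset B it had counts in 3 of 16 (18.8%, 4.05% to 45.7%), at 275, 438 and 637 CPM. All other Enpp2-rich cells had none, so both medians were 0. A single other cell, B11 of dataset A, held 2003 counts, 1340 CPM. That cell carried 17 neuroblast genes and 1 count in all of the remaining 6 genes. The summed level of dataset A was thereby 11.1 CPM in Enpp2-rich and 43.9 CPM in other cells, 3.97-fold lower, with a log2 ratio of -1.90. In dataset B it was 78.6 CPM against 0, at least 1343-fold higher, or 5.34-fold with H4 (645 of 2709 counts) among the other cells. Without the Enpp2-rich cell with most counts the levels were 5.13 CPM in dataset A and 49.5 CPM in dataset B. The shares of dataset A, 2 of 16 Enpp2-rich and 1 of 25 other cells, lay within each other's intervals.

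**Figure D2:**
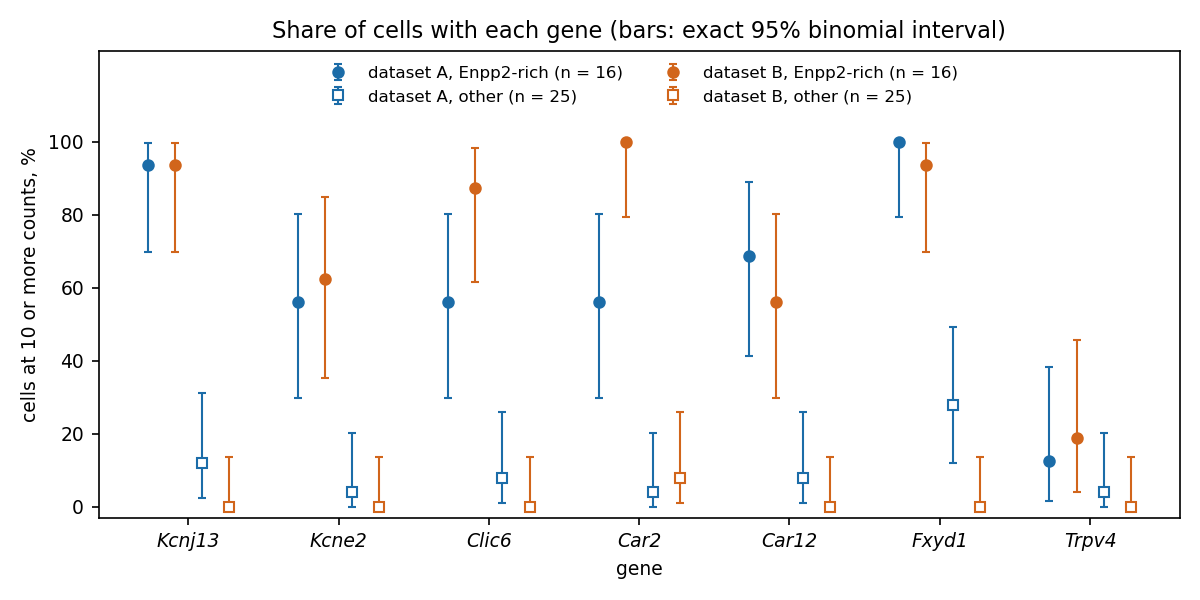
Points give the percent of cells at 10 or more counts for each gene in Enpp2-rich cells (filled circles, 16 per dataset) and other cells (open squares, 25 per dataset), dataset A in blue and dataset B in orange, with exact 95% binomial intervals as bars. Kcnj13 and Fxyd1 are at 93.8% or 100% in both datasets, and the shares of Clic6 and Car2 are higher in dataset B than in dataset A.

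Fxyd1 encodes phospholemman, a small membrane protein that regulates the sodium pump. It was detected in all 16 Enpp2-rich cells of dataset A (interval 79.4% to 100%) and in 15 of 16 of dataset B. Levels ran from 131 to 3812 CPM with a median of 1086 in dataset A, and from 0.387 to 2561 CPM with a median of 876 in dataset B. The low cell of dataset B was G5 of plate P3, which held 1 count. The groups overlapped in dataset A, because 7 of 25 other cells also had the gene, at up to 2209 CPM. In dataset B none of 25 did. The summed level was 1711 CPM against 242 CPM in dataset A, a ratio of 7.08, and 30.6 without cell H6, which held 8685 of 11019 counts. Without H6 and F4 it was 61.8. It was 906 CPM against 0 in dataset B, at least 15488-fold higher, or 49.6-fold with H4 (1018 counts) among the other cells. Cell A8, the deepest of all with 69.3% of its counts in Ttr, held 42.1% of the Fxyd1 counts of the Enpp2-rich cells of dataset A, and without it their level was 1222 CPM.

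Fxyd1 was also found in cells with astroglial genes. Among the other cells 5, all in dataset A, had at least 10 of the 14 astroglia and quiescent stem cell genes. Their Fxyd1 levels were 0, 271, 350, 455.5 and 495 CPM, so 4 of the 5 had it, below the median of the Enpp2-rich cells. Kcne2, Clic6, Car12 and Trpv4 had no count in any of the 5, and Kcnj13 had 1 count in 1 of them. The cell without Fxyd1, H2, had 822 CPM of Car2. The Fxyd1 gene lies at chr7:30751092-30756677, minus strand. Its promoter (RefSeq, GRCm38.p6, chr7:31054854-31055103, minus strand) is shown against that of Kcnj13, since both genes were in nearly every Enpp2-rich cell. It holds none of the 5 motifs searched, on either strand, and so has no capitals.
Fxyd1 promoter: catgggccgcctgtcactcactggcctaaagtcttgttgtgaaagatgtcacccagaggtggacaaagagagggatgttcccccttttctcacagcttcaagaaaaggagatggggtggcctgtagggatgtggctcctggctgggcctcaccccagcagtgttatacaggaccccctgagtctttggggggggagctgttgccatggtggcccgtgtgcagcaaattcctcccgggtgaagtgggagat

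Car2 (chr3:14951317-14967568, plus strand, GRCm39) encodes the cytosolic carbonic anhydrase II. It was detected in 9 of 16 Enpp2-rich cells of dataset A and in all 16 of dataset B (interval 79.4% to 100%). Levels ran from 0 to 3828 CPM with a median of 344 in dataset A, and from 157 to 6643 CPM with a median of 2264 in dataset B. In the other cells it reached 10 counts in 1 of 25 in dataset A, at 822 CPM, and in 2 of 25 in dataset B, at 679 and 1462 CPM. The cell of dataset A, H2, carried 13 of 14 astroglia genes. The cells of dataset B, both of plate P1, carried 19 and 26 neuroblast genes and no Ttr. The summed level was 846 CPM against 38.2 CPM in dataset A, a ratio of 22.1, and 2585 CPM against 91.4 CPM in dataset B, a ratio of 28.3. Both ratios rest on 1 or 2 cells. H2 held 1734 of the 1744 counts of the other cells of dataset A, and without it the ratio was 3679 (interval 2000.3 to 7673). The pair of plate P1 held 4684 of 4685 counts in dataset B, and without it 1 count was left, a ratio of 121148 with a counting interval of 21743 to 4785150. With the pair kept and H4 (8490 counts) also among the other cells, the ratio of dataset B was 10.2.

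Car12 encodes the transmembrane carbonic anhydrase XII, whose active site faces outward. It was detected in 11 of 16 Enpp2-rich cells of dataset A (68.8%, 41.3% to 89.0%) and in 9 of 16 of dataset B (56.3%). Levels ran from 0 to 3433 CPM with a median of 676.5 in dataset A, and from 0 to 3729 CPM with a median of 283 in dataset B. The summed level was 1003 CPM against 5.18 CPM in dataset A, a ratio of 194, or 746 without cell H6 and 1908 without H6 and G9. In dataset B it was 595 CPM against 0, at least 10170-fold higher, with 37.8% of the counts from 1 cell, without which the level was 394 CPM. H4 had no count of Car12. Car12 (chr9:66615426-66674186, plus strand) overlaps Aph1b on the opposite strand over 293 exon bases, 3.46% of its exons. Aph1b was detected in 4 of 32 Enpp2-rich cells, and its counts were 0% to 22.2% of those of Car12 over the 20 cells with Car12. How reads in the shared bases were counted is not given in the sources used here.

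At least 1 of the 2 anhydrases was detected in 30 of the 32 Enpp2-rich cells, 14 in dataset A and all 16 in dataset B. Both were detected in 15 cells, Car2 alone in 10 and Car12 alone in 5. Among these cells Car12 had more counts than Car2 in 9 and fewer in 5 in dataset A. In dataset B Car12 had more in 3 and fewer in 13. In dataset A Car2 was found alone in 3 cells and Car12 alone in 5. In dataset B these numbers were 7 and 0. The membrane enzyme was therefore found without the cytosolic one in dataset A only. Over the 16 cells of each dataset the Spearman correlation of their levels was -0.07 (dataset A) and -0.08 (dataset B).

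**Figure D3:**
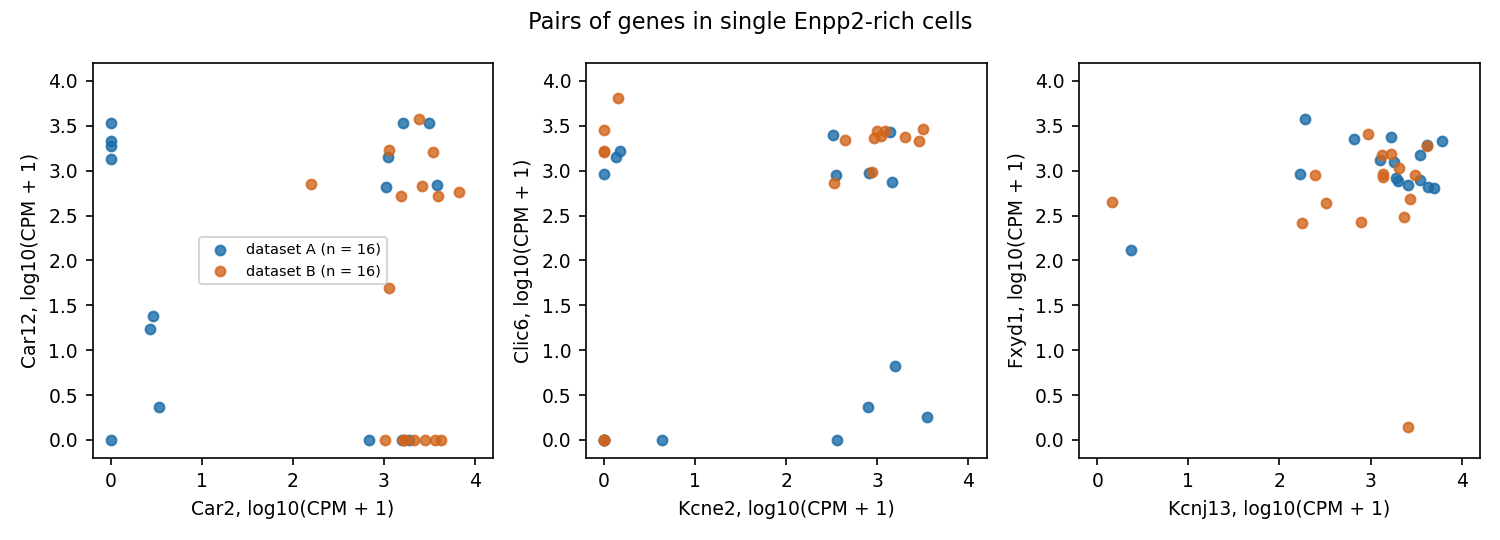
Each point is 1 Enpp2-rich cell (16 per dataset), with log10(CPM + 1) of one gene on each axis, for Car2 with Car12, Kcne2 with Clic6 and Kcnj13 with Fxyd1; points on an axis have no count of the other gene. Both anhydrases are present in 15 cells and one of them in another 15, while Kcnj13 and Fxyd1 are present together in 29 of 32.

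Both the number of the genes and their combination differed from cell to cell. Kcnj13 and Fxyd1 were detected together in 29 of the 32 Enpp2-rich cells. Those with all 7 numbered 1, cell D10 of plate PL4. Another 8 cells had 6 of the genes, and 15 had 5. The fewest were in E10 of dataset A, which had Fxyd1 alone, and in G4 of dataset A and G5 of plate P3, with 2 each. G4 and G5 were not shallow, with 2778938 and 2583435 counts, and their Enpp2 shares were 24.3% and 18.3%. Both expressed fewer genes than any other Enpp2-rich cell, with 899 and 877 rows above 0. The number of the 7 genes in a cell had a Spearman correlation of -0.14 with its total and 0.15 with its number of genes over the 32 cells.

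Kcnj13 followed Enpp2 within the Enpp2-rich cells, with a Spearman correlation of 0.62 over 32 cells (dataset A alone 0.44, dataset B alone 0.64). With the number of genes in a cell its correlation was -0.58 (dataset A alone -0.47, dataset B alone -0.64). Car2 ran against Ttr, at -0.52 over 32 cells (dataset A alone -0.44, dataset B alone -0.22). These are shares of the same totals, so an abundant Ttr or Enpp2 lowers the CPM of all other genes, and the correlations are a description.

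**Figure D4:**
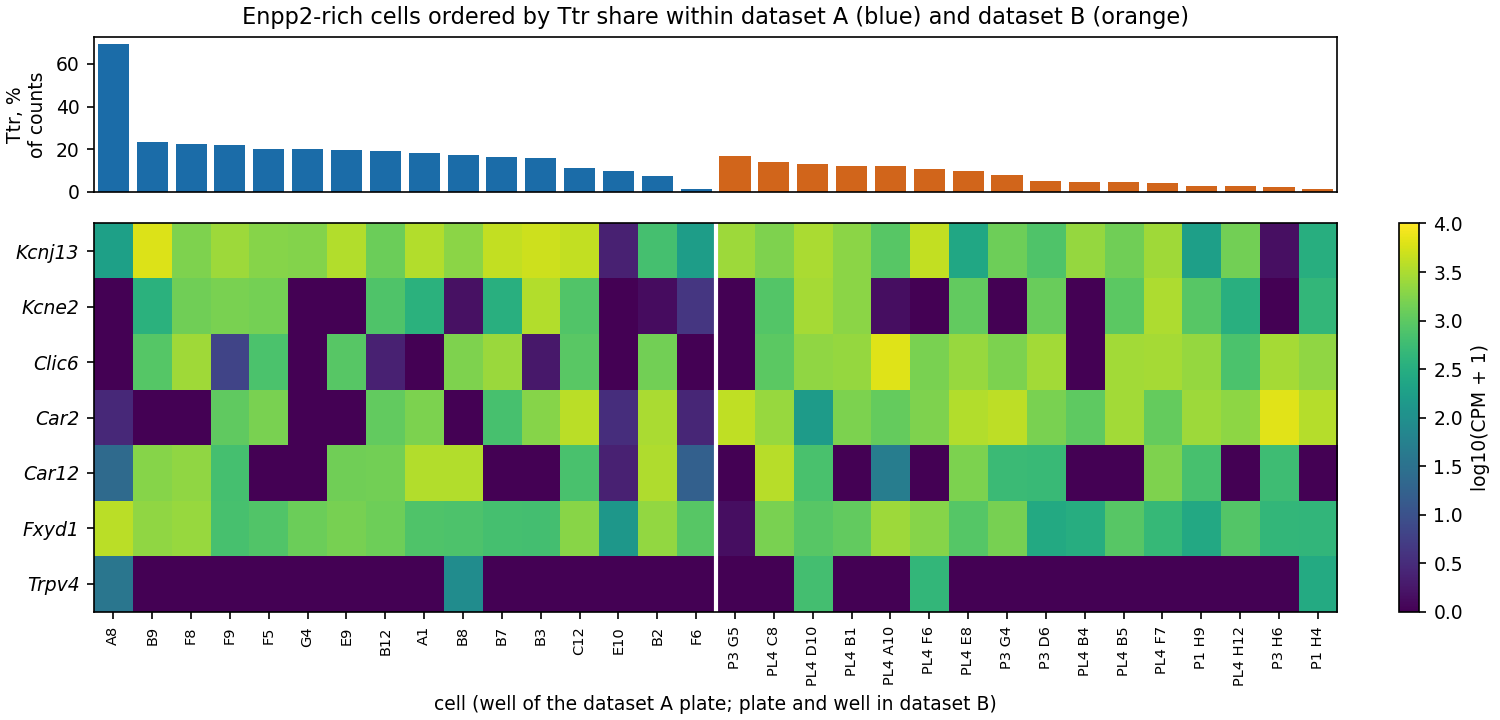
The upper bars give the Ttr share of counts in percent for each of the 32 Enpp2-rich cells, ordered from high to low within dataset A (blue) and dataset B (orange), and the lower panel gives log10(CPM + 1) of the 7 genes in the same cells. Kcnj13 and Fxyd1 form nearly unbroken rows, the other genes are present or absent by cell, and Car2 is present in all cells of dataset B.

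Per kilobase of exon, the order of summed levels in Enpp2-rich cells differed between the datasets. In dataset A Fxyd1 had 390.2 CPM per kb, Kcnj13 322, Kcne2 276, Car2 192, Clic6 139, Car12 118 and Trpv4 1.87. In dataset B Car2 had 587 CPM per kb, Clic6 463, Kcne2 426, Kcnj13 249.5, Fxyd1 207, Car12 70.3 and Trpv4 13.3. The order in dataset A rests in part on cell A8, without which Fxyd1 had 279 CPM per kb. Without the top cell Trpv4 had 0.869 and 8.39 CPM per kb in datasets A and B, and Car12 had 46.5 in dataset B. By the median cell of dataset A Kcnj13 (312 CPM per kb) was above Fxyd1 (248), Kcne2 (186) came next, and Clic6 (82.3), Car12 (79.9) and Car2 (78.1) followed. The ranges over single cells overlapped between all neighbours in both orders. Except for Fxyd1 in dataset A and Car2 in dataset B, each range began at or near 0. The overlap therefore cannot show whether neighbours differ. Trpv4 was last in both datasets, with its median cell at 0 in each. Exon lengths were those of the GENCODE vM39 annotation, and the protocol, with oligo-dT priming and template switching, may not cover long transcripts evenly.

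Clic6 and Car2 were higher in the Enpp2-rich cells of dataset B than in those of dataset A, and Kcnj13, Car12 and Fxyd1 were lower by less than 2-fold, when scaled by library size alone. The ratio of summed CPM was 3.33 for Clic6 and 3.06 for Car2. It was 7.11 for Trpv4, which rests on 5 cells. It was 1.54 for Kcne2, 0.775 for Kcnj13, 0.593 for Car12 and 0.529 for Fxyd1. The rule of a 2-fold difference called 3 of the 7 higher, against 44.7% of the 5793 genes, and 0 of the 7 lower, against 20.1%. The median of all genes was itself shifted by 0.63 on the log2 scale, as was the median of the 7. Relative to that shift Clic6 was 1.10 and Car2 0.98 higher, Kcne2 was at 0.00, and Kcnj13, Car12 and Fxyd1 were at -0.998, -1.38 and -1.55. The shift rests in part on the 2 cells of plate P1, without which it was 0.14. Relative to it Clic6 was then 1.57 and Car2 1.42 higher, Kcne2 was at 0.52, and Kcnj13, Car12 and Fxyd1 were at -0.30, -0.80 and -0.90. Without plate PL4 the shift was 0.20. Relative to that Clic6 was 1.38 and Car2 1.98 higher, Kcne2 was at -0.54, and Kcnj13, Car12 and Fxyd1 were at -1.41, -1.63 and -2.115. The Enpp2-rich cells of the datasets also differed in quality measures. The mitochondrial share of counts had a median of 7.57% (4.03% to 9.91%) in dataset A and 4.79% (0.201% to 8.91%) in dataset B, where the cells of P1 had 0.201% and 0.233%. The median cell of dataset A had 1265.5 genes above 0, against 1477 for dataset B. The part of these measures in the differences was not tested.

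The order of the genes did not depend on scaling, because it can be read within cells. Clic6 had more counts than Kcnj13 in 2 of 16 Enpp2-rich cells of dataset A and in 10 of 16 of dataset B, and the ratio of their summed counts went from 0.316 to 1.36. Car2 had more counts than Kcnj13 in 2 of 16 cells of dataset A and in 11 of 16 of dataset B, with ratios of 0.422 and 1.66. Against Fxyd1, Car2 had more counts in 7 of 16 and 13 of 16 cells of datasets A and B. With TMM factors in place of library size alone, the difference was 0.75 for Clic6 and 0.63 for Car2, and -1.35 for Kcnj13, -1.74 for Car12 and -1.90 for Fxyd1 on the log2 scale, while Kcne2 turned from 0.63 to -0.36. The calls then became 1 higher (Trpv4), against 33.4% of all genes, and 3 lower (Kcnj13, Car12 and Fxyd1), against 29.9%. With RLE factors they were the same genes, against 31.3% of all genes higher and 32.1% lower. With Ttr and Enpp2 left out of the totals 3 were higher, against 39.2%, and 2 (Car12 and Fxyd1) lower, against 24.8%. The share of called genes that were higher in dataset B moved from 69.0% to 52.8% with TMM and 49.3% with RLE factors. Ttr took a median of 18.7% of counts in the Enpp2-rich cells of dataset A and 6.70% in those of dataset B.

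The Enpp2-rich cells of dataset B lay unevenly on its plates, 10 on PL4, 4 on P3, 2 on P1 and 0 on P2. Car2 was in all of them on each plate, with medians of 1655 CPM on PL4, 4064 on P3 and 3118 on P1. Clic6 was in 9 of 10, 3 of 4 and 2 of 2, with medians of 2244, 2217 and 2263 CPM. Each of these medians was above that of the plate of dataset A for the same gene. Kcnj13 was lower outside PL4, with medians of 1856 CPM on PL4, 1057 on P3 and 251.5 on P1. Without plate PL4 the log2 difference between the datasets was -1.21 for Kcnj13, -1.42 for Car12 and -1.91 for Fxyd1, so that 3 of the 7 were called lower, against 25.5% of all genes, and 3 higher, against 41.6%. The levels of dataset B were then 868 CPM for Kcnj13, 402 for Kcne2, 374 for Car12, 454 for Fxyd1 and 48.1 for Trpv4, each more than 1.5 times lower than with the plate. Sort gate and plate differ together between the datasets and cannot be told apart.

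Outside the Enpp2-rich cells, and apart from H6 and G9, no cell held more than 1 of the genes at 10 or more counts. In the 25 other cells of dataset B, 170 of 175 combinations of cell and gene were at 0. What remained was Car2 in 2 cells and 3 single counts. In dataset A 129 of 175 were at 0, 29 had 1 to 9 counts and 17 had 10 or more. Of these 17, H6 and G9 held 9. G9 had 68 counts of Kcnj13, 14 of Kcne2, 27 of Clic6, 35 of Car12 and 44 of Fxyd1, low values beside 25 neuroblast genes and 0.373% of its counts in Ttr. Cells A2 and F7, with 0.0226% and 0.2301% of their counts in Ttr, held 13 counts of Kcnj13 and 13 of Fxyd1. Small counts of the 7 genes and of Ttr were thus found in the same cells of the dataset A plate, and whether RNA passed between wells or cells was not tested.

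Other genes of fluid secretion were taken from a list of 32, written with earlier results of these data known, of which 26 had rows and 19 passed the filter on low values. Of these 19, 6 were higher in Enpp2-rich cells in both datasets (Slc12a2, Slc12a4, Slc4a10, Trpm3, Cab39l and Stk39), 3 were lower (Atp1b2 and Trpm7 among them), and the others differed between datasets or by less than 2-fold. Over all 5793 genes 10.2% were higher and 32.7% lower by the same rule. The rule of detection in at least 50% of the Enpp2-rich cells of both datasets, met by 5.61% of the 5793 genes and by 6 of the 7 (all but Trpv4), named 4 of them. These were Stk39 in 14 and 13 of 16 cells of datasets A and B, Trpm3 in 12 and 14, Cab39l in 10 and 16, and Atp1b1 in 13 and 10. Stk39 encodes the SPAK kinase that activates the cotransporter encoded by Slc12a2, and Cab39l encodes a protein that binds such kinases. Trpm3 encodes a cation channel, and Atp1b1 a beta subunit of the sodium pump. Stk39 was in none of the 50 other cells, while Atp1b1 was in 5 of 25 and 11 of 25.

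Of the 19 genes, 14 were detected in fewer Enpp2-rich cells of dataset B than of dataset A, against 28.8% of the 5793 genes, and 3 (Trpm3, Trpm7 and Cab39l) in more, against 48.6%. Slc4a10, a sodium-coupled bicarbonate transporter, was in 12 and 5 of 16 Enpp2-rich cells of datasets A and B. Slc12a2, the sodium, potassium and chloride cotransporter NKCC1, was in 8 and 4, at summed levels of 334 and 341 CPM. Slc4a2, an anion exchanger, was in 8 and 0. Slc4a5 and Aqp1, the latter the water channel of the apical membrane, were in 7 and 6 of 16 cells of dataset A and at 0 counts in dataset B. These 5 were picked from the 14 after their values were seen, as was this count.

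Of the relatives of the 7 genes, Car14 was the one that met the rule of 50%. It encodes another membrane carbonic anhydrase and was in 11 of 16 Enpp2-rich cells of dataset A and 9 of 16 of dataset B, at summed levels of 556 and 449 CPM, against 65.4 CPM in the other cells of dataset A and 0 in those of dataset B. Car10 was also higher in both datasets, in 4 and 5 of 16 cells. In the other families Clic4, Clic1 and Fxyd6 were lower in Enpp2-rich cells in both datasets. Fxyd6 was in none of the 32 and in 16 of 25 other cells of dataset B. The 4 other Kcnj genes and the 1 other Trpv gene of the table did not pass the filter.

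**Figure D5:**
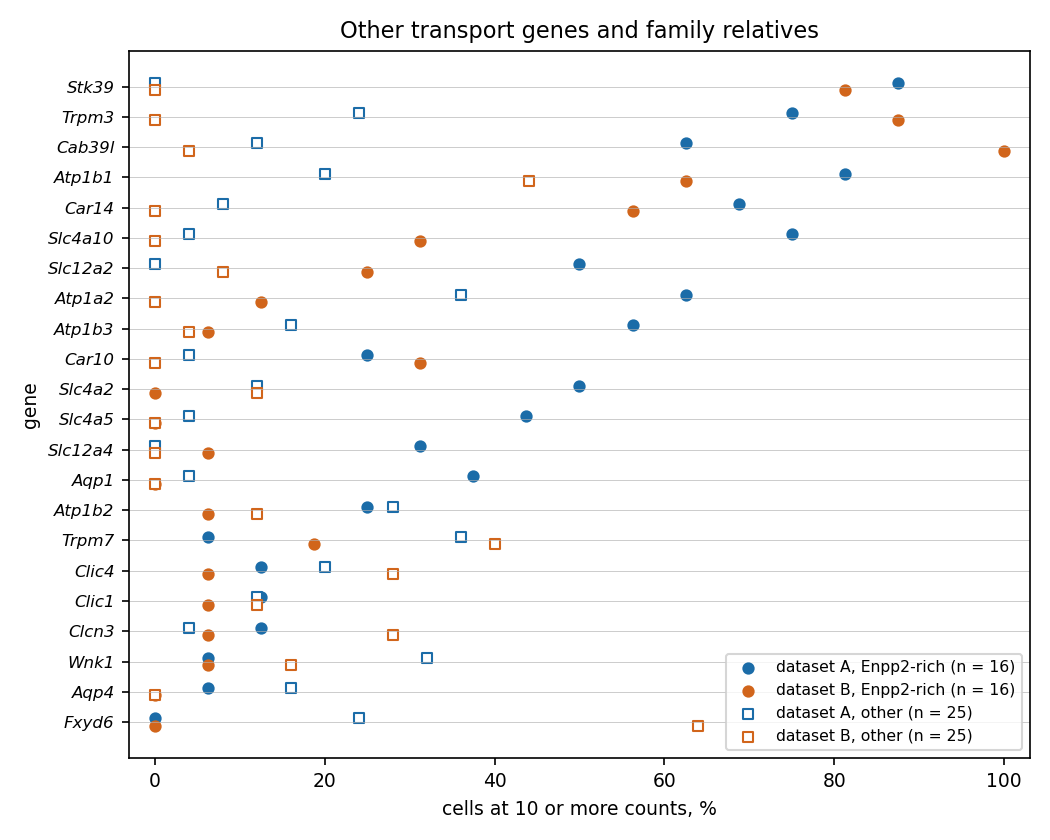
Percent of cells at 10 or more counts (horizontal axis) for genes of the secretion list and relatives of the 7 genes that passed the filter, without those not reported here (vertical axis, ordered by their share in Enpp2-rich cells); filled circles are Enpp2-rich cells (16 per dataset), open squares other cells (25 per dataset), dataset A in blue and dataset B in orange. Stk39, Trpm3, Cab39l, Atp1b1 and Car14 are at 50% or more of the Enpp2-rich cells in both datasets, and Fxyd6 is at 0 there.

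The genes most like each of the 7 over all 82 cells were found by Spearman correlation of log2(CPM + 1) among the 5793 genes. For Kcnj13 they were Ecrg4 (0.92), Enpp2 (0.89) and Ttr (0.89), and for Fxyd1 Ecrg4 (0.87), Ttr (0.87) and Kcnj13 (0.86). For Kcne2 they were Spint2 (0.85), Kl (0.80) and Clic6 (0.73), and for Clic6 Rbm47 (0.81), Sostdc1 (0.74) and Igfbp2 (0.74). For Car2 they were Cab39l (0.79), Chchd10 (0.76) and S100a1 (0.74), and for Car12 2900040C04Rik (0.71), Rdh5 (0.70) and Fxyd1 (0.69). For Trpv4 the highest values were 0.43 for Borcs8, 0.41 for Psenen-ps and 0.41 for Ap1s2, which in a gene with counts in 6 cells is no finding. The points share the split into Enpp2-rich and other cells, so these values mostly order genes by how well they follow it.

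Within the 32 Enpp2-rich cells the leading genes were others, except that Spint2 stayed first for Kcne2 and Borcs8 for Trpv4. Kcnj13 was most like Hspa5 (0.69), Sulf1 (0.63) and mt-Co1 (0.63), and Kcne2 like Spint2 (0.68), Ssr1 (0.55) and Ace (0.53). Clic6 was most like Uqcc2 (0.80), Map1lc3a (0.65) and Ndufb4 (0.65), and Car2 like Slc25a5 (0.78), Ubb (0.71) and Oaz1-ps (0.71). Among the genes most like Car12 were Atraid (0.58) and Fap (0.56), and Fxyd1 was most like Tmed10-ps (0.57), Apoe (0.51) and Pdia3 (0.50). Atraid, Fap and Tmed10-ps were themselves at 10 or more counts in 7, 5 and 10 of the 32 cells. The genes of these lists were picked for the highest correlation over 32 cells, and no correlation was tested. Trpv4 was most like Borcs8 (0.83), Abca2 (0.73) and Gnl2 (0.69), over 5 cells with counts. Of the 21 genes in these lists of 3, 14 were kept when Ttr and Enpp2 were left out of the totals. Kept were 2 or 3 for each gene but Car12 and Fxyd1, with 1 each, and Enpp2 (0.73) then became the second gene of Kcnj13. Over all 82 cells 17 of 21 were kept. The cells of a dataset share a sort gate and plates, and Clic6 and Car2 differed between the datasets by 2-fold or more when scaled by library size alone. The part of that difference in the likeness was not tested.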

How the data were processed

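The table that the authors deposited holds unnormalized counts of reads, since its values are whole and each cell has its own total. Per the labels' protocols, single cells were sorted into plates, reverse transcribed with oligo-dT and a template-switching oligo, and preamplified by PCR. The submitters' processing notes name FastQC 0.12.1, STAR 2.7.10b, Subread 2.1.1 and featureCounts, and the builds GRCm39 and mm10, without their roles. Strand setting, annotation and filters are not given in the sources used here. Column names give dataset, plate and well, so no cell could be assigned to any of the 4 labelled samples.

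Counts were scaled to 1000000 per cell or per sum of cells (CPM). Log2 ratios used CPM + 1 and were called at 2-fold. Detection was 10 or more counts. A count of 0 over a group was set to 3 counts for bounds. Intervals are exact (Clopper-Pearson binomial for shares, conditional binomial for ratios of counts) at 95%. Those of ratios cover counting error only, and those of shares take cells as independent. There was no test, since no replicate is named within a dataset and the genes were chosen on this contrast. Genes were named by rule: the 7, list and family genes in at least 50% of Enpp2-rich cells of both datasets, the 3 most correlated genes of each, and genes overlapping one of the 7. A few genes that these rules name are not reported here. The 7 genes, the lists and the rules were chosen with earlier results of these data known. Alternatives were cells thinned to 500000 counts, other Enpp2 and detection limits, scaling without Ttr and Enpp2, edgeR 4.0.16 TMM and RLE factors, cells or plates left out, a pseudocount of 10 CPM and no filter. The script was checked on simulated counts. Gene positions came from GENCODE vM39 (GRCm39) by symbol and promoter sequences from RefSeq (GRCm38.p6). Tools were R 4.3.3 and, in Python 3.11.15, matplotlib 3.10.9, pandas 2.3.3, scipy 1.17.1 and numpy 2.4.6.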

Additional observations from a re-analysis of the deposited data

Results flagged for a closer look

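Trpv4 had opposite signs in the 2 datasets. Its log2 ratio of Enpp2-rich over other cells was -1.90 for dataset A and 6.31 for dataset B, and the difference was not tested, since no replicate is named within a dataset. In dataset A the value rests on 1 cell, B11, which held all 2003 Trpv4 counts of the other cells together with 17 neuroblast genes. The Enpp2-rich cells with Trpv4 numbered 2 in dataset A and 3 in dataset B.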

How the results depend on the processing

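The 6 genes that were at least 2-fold higher in Enpp2-rich cells in both datasets numbered 6 in every alternative run except where the cell with most counts of each gene was left out, in both groups or among the other cells alone, and then all 7 were. With it left out in both groups the log2 ratio of Trpv4 in dataset A turned from -1.90 to 2.62, and to 3.59 when only cell B11 was left out. The median number of genes per Enpp2-rich cell was 5 to 5.5, and 501 to 863 genes were at least 2-fold higher in both datasets. The share of called genes that were higher in both went from 23.7% to 34.3% with TMM factors and 35.7% with RLE factors, and the median of all genes in dataset A from -1.50 to -0.58 and -0.36. Of 255 alternative log2 ratios of Enpp2-rich over other cells, 251 kept direction and side of the threshold, and of 119 between datasets 98 did. Of 238 levels 208 stayed within 1.5 times. Between the datasets Clic6 and Car2 were under 2-fold with TMM and RLE factors, with differences down to 0.55 and 0.43, and Kcne2 changed sign in those settings and without plate PL4 (-0.33). The causes were not tested. The alternatives without the mixed Enpp2-rich cells, without cell H6, and without the other cells with most counts of a gene were chosen after seeing the data. No paired analysis was possible because the labels give the cells no replicate numbers and no test was made. With 16 Enpp2-rich cells per dataset, the intervals of shares are wide, and they leave out variation between mice and plates.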
